A study of Mus musculus with 18 samples.

Results

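Autotaxin, its lipid product's receptors and the phosphatases that end its signal were followed as 8 genes in T23 cells, a line from mouse prostate adenocarcinoma, with 18 RNA-seq libraries. The 8 genes are Enpp2, Lpar1, Lpar2, Lpar3, Lpar4, Lpar6, Plpp1 and Plpp3, chosen by name from the 55487 genes of the count files and matched by Ensembl identifier. All 8 passed the filter on low counts. The rule that names them uses no measured value, but they were chosen with earlier results of these data known.

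Each group held 3 libraries. T23 cells had been grown with fibroblasts under enzalutamide (ENZA, an androgen receptor antagonist) plus isoliquiritigenin (ISO, a plant chalcone), with fibroblasts under ENZA, under ENZA without fibroblasts, with SPARC-deficient fibroblasts (Fibro SparcKO), with wild type fibroblasts (Fibro), or alone. These are called the ENZA + ISO co-culture, the ENZA co-culture, ENZA alone, the Sparc-deficient co-culture, the wild-type co-culture and T23 cells alone. The series title concerns loss of SPARC in stroma after castration and neuroendocrine differentiation of prostate cancer. Doses, times and the way tumour cells were parted from fibroblasts are not given in the labels used here. The sample descriptions speak of human fibroblasts in both co-cultures that received ENZA, while their titles carry the fibroblast name of the wild-type co-culture (FIBROB6). Fibroblast source and ENZA cannot be told apart if the fibroblasts differed. Nothing in the labels says that replicates came from separate cultures, so p-values measure the spread between these libraries, which may be technical.

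Autotaxin is a secreted lysophospholipase D that cuts the head group from lysophosphatidylcholine and leaves lysophosphatidic acid (LPA). LPA acts outside the cell through G protein-coupled receptors. Lpar1, Lpar2 and Lpar3 belong to the Edg branch of these receptors, and Lpar4 and Lpar6 to a branch related to the purinergic receptors. Plpp1 and Plpp3 are membrane phosphatases whose active site faces outward and which strip the phosphate from LPA. The axis is known for wound-like responses such as migration, contraction and growth, and autotaxin was first described as a motility factor of tumour cells.

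The libraries held 16.1 to 26.7 M counts in 18123 to 20154 detected genes. Levels are in normalised CPM, counts per M counts of the scaled library. Where a library had 0 counts of a gene, up to 3 counts (0.112 to 0.186 CPM) remain possible by counting error alone. In replicate 2 of ENZA alone a single ribosomal RNA gene took 26.4% of counts, against at most 0.138% in any other library. Without that library, or without that gene, no call of the 8 genes was lost. Mitochondrial transcripts took 3.42% ± 0.536 of counts in the ENZA + ISO co-culture, 2.32% ± 0.667 in the ENZA co-culture, 2.74% ± 1.16 under ENZA alone and 0.924% ± 0.161 in T23 cells alone (SD, n = 3 each). The epithelial identity that an adenocarcinoma line implies was nearly absent from the RNA. Of 7 epithelial markers only Krt19 reached 1 CPM, and Epcam, Cdh1, Krt5, Krt8, Krt14 and Krt18 stayed below 1 CPM in every library. The macrophage marker Adgre1, the T cell marker Cd3e and the neuroendocrine markers Chga and Insm1 were at 0 in all 18. Other markers of these lists were present. In T23 cells alone 2 of 6 neuroendocrine markers reached 1 CPM, Ncam1 with a mean of 133 CPM and Eno2 with 45.2 CPM. Of 6 leukocyte markers 1 did so, Cd68 with 5.00 CPM. Of 9 fibroblast markers 8 reached 1 CPM in T23 cells grown alone, where they summed to between 22356 and 23315 CPM, so these markers do not separate tumour cells from fibroblasts here. In bulk RNA, fewer cells of a type and less RNA per cell cannot be told apart. Sparc, the gene deleted in the fibroblasts, was high in the T23 cells themselves. It stood at 3101, 3016 and 2977 normalised CPM in the Sparc-deficient co-culture, against 3049, 3092 and 3067 CPM in the wild-type co-culture and 3208, 3192 and 3191 CPM in T23 cells alone, so the deletion cannot be checked from these libraries.

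Levels between genes were compared per kilobase of exon. In T23 cells alone, Lpar1 led with 49.0 CPM per kb, above 93.3% of 13591 genes with a length. Plpp3 followed with 40.4 and Plpp1 with 20.7 CPM per kb. Lpar2 at 6.98 CPM per kb and Enpp2 at 4.28 CPM per kb stood near the middle, above 56.8% and 45.1% of genes. Lpar4 with 1.35, Lpar6 with 1.07 and Lpar3 with 0.241 CPM per kb lay low, Lpar3 above only 7.76% of genes. Divided by the longest transcript in place of all exons, Enpp2 stood at 7.98 and Lpar2 at 7.02 CPM per kb, so the order of these genes depends on the length used. Lpar1 made up 84.2% ± 0.484 of the summed level of the 5 receptors in the ENZA + ISO co-culture, 85.2% ± 0.502 in the Sparc-deficient co-culture and 83.6% ± 0.673 in T23 cells alone (SD, n = 3 each). Its mean share was between 82.9% and 85.2% in each of the 6 groups. The receptor sum was 68.9 ± 2.66 CPM per kb in the ENZA + ISO co-culture, 57.6 ± 3.02 in the ENZA co-culture and 58.6 ± 1.19 in T23 cells alone.

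**Figure D1:**
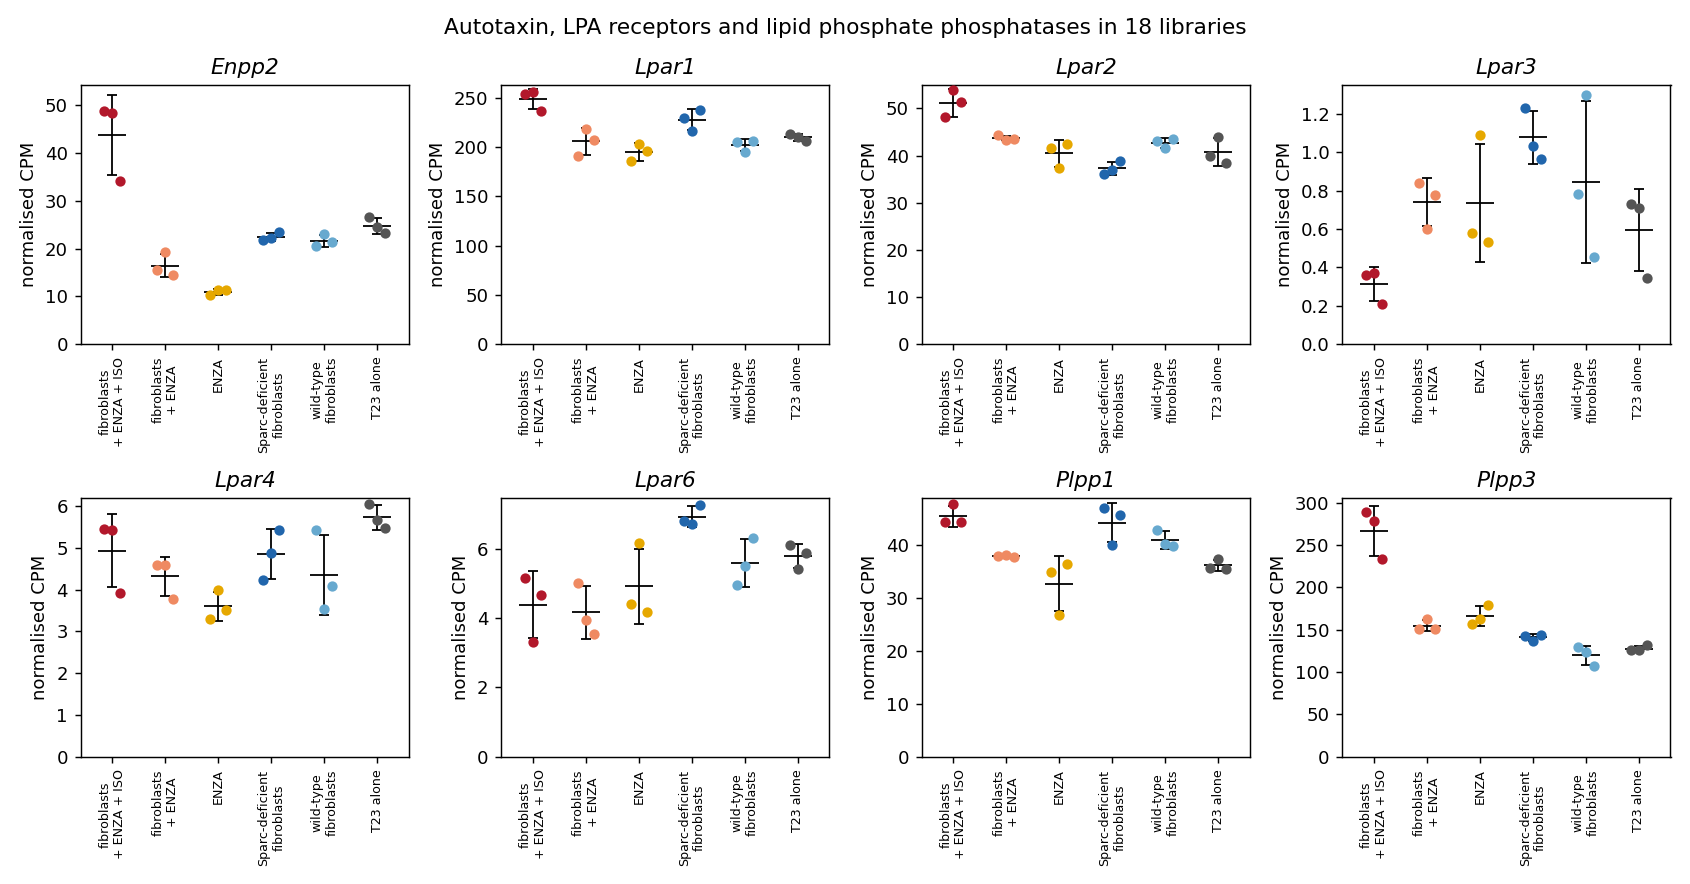
Normalised CPM (vertical axes, from 0) of the 8 genes in each of the 18 libraries, by group. Points are libraries, the horizontal dash is the mean and the bar 1 SD (n = 3); Enpp2 is lowest under ENZA alone (10.2 to 11.3 CPM) and highest in the ENZA + ISO co-culture (34.1 to 48.8 CPM).

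Across the comparisons, Enpp2 and Plpp3 were called most often, each in 4 of the 8 tests run, and Lpar6 in none. A gene was called when its adjusted p from edgeR's quasi-likelihood test, with Benjamini-Hochberg adjustment over 13600 genes, was under 0.05. ISO moved the most members: 6 of 8 were called in the ENZA + ISO against the ENZA co-culture, 5 higher and 1 lower, where 26.5% of all tested genes were called, 12.9% higher and 13.6% lower. ENZA alone against T23 cells alone gave 3 calls, 1 higher and 2 lower, beside 12% of all genes, 6.84% higher and 5.19% lower. The ENZA against the wild-type co-culture gave 2 calls, 1 in each direction, beside 7.18% of all genes, 3.7% higher and 3.49% lower. The ENZA co-culture against ENZA alone gave 1 call, higher, beside 2.08% of all genes, 1.14% higher and 0.941% lower. The Sparc-deficient against the wild-type co-culture gave 2 calls, both higher, beside 11.5% of all genes, 6.72% higher and 4.79% lower. Against T23 cells alone the Sparc-deficient co-culture gave 1 call, higher, beside 9.74% of all genes, 6.1% higher and 3.65% lower. The wild-type co-culture against T23 cells alone gave 0 calls by edgeR and 0 by DESeq2, with 2 members at an unadjusted p under 0.05, beside 0.515% of all genes, 0.257% in each direction. The interaction, which asks whether the ENZA response differs with and without fibroblasts, gave 0 calls by edgeR and 1 by DESeq2, with 2 members at an unadjusted p under 0.05, beside 0.0221% of all genes, 0.0147% higher and 0.00735% lower. Counts of 1 or 2 among 8 genes cannot be set apart from these shares. Comparisons that share a group are not independent of each other.

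**Figure D2:**
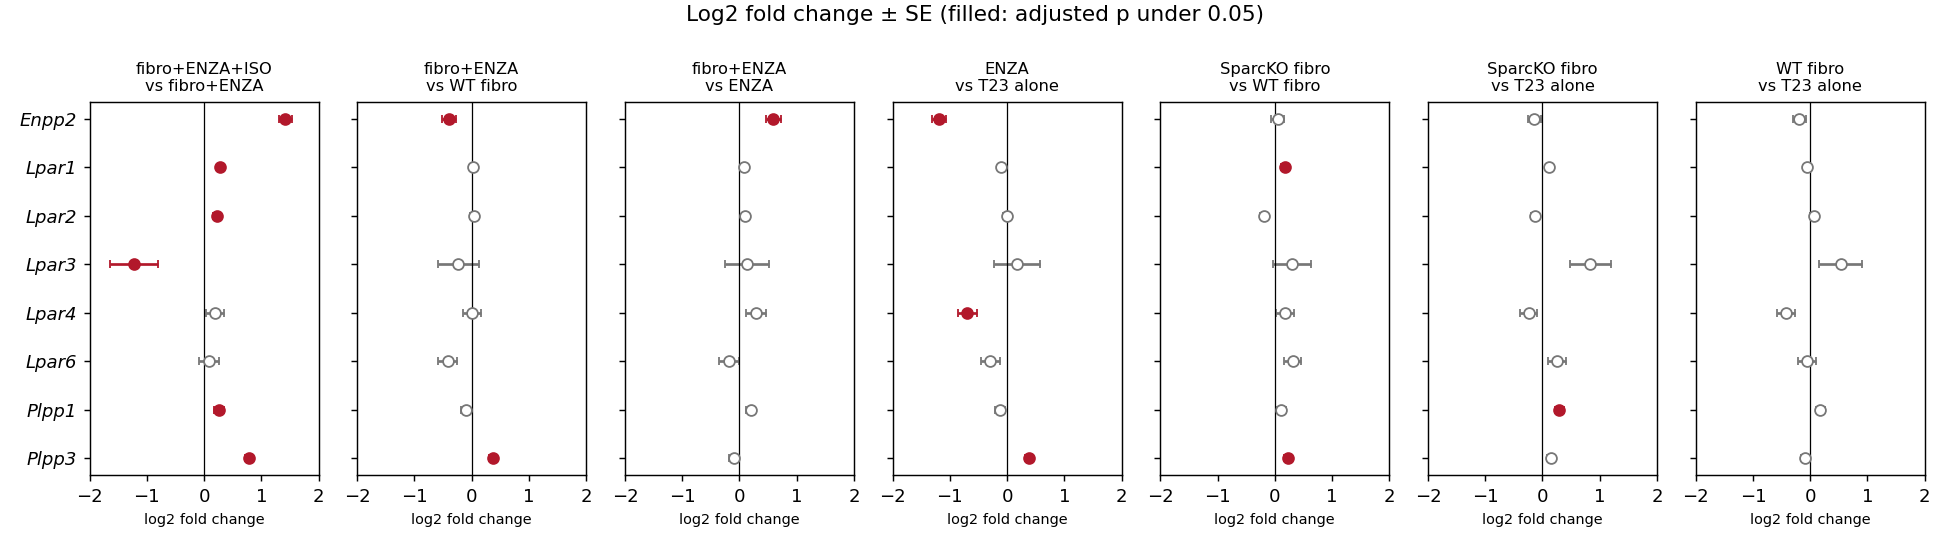
Log2 fold change (horizontal axes) of each of the 8 genes in 7 comparisons, with bars of 1 SE. Filled points passed an adjusted p of 0.05; the farthest from 0 is Enpp2 with ISO (1.41), followed by Lpar3 with ISO (-1.23) and Enpp2 under ENZA alone (-1.18).

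Enpp2, the gene of autotaxin (ENSMUSG00000022425, GRCm38 chr15:54838901-54952892, minus strand), fell under ENZA and rose when ISO was added. It had 10.2, 11.3 and 11.3 normalised CPM under ENZA alone, against 26.6, 24.4 and 23.2 CPM in T23 cells alone. All 3 libraries under ENZA lay below all 3 without it. The log2 fold change was -1.18 ± 0.13 (SE), a 2.27-fold lower level, with an adjusted p of 9.24e-07. In co-culture, Enpp2 had 15.6, 19.2 and 14.5 CPM with ENZA, against 20.5, 22.9 and 21.3 CPM with wild-type fibroblasts and no drug. No ENZA library reached the lowest untreated one, though replicate 2 came near it. This fall was smaller, -0.40 ± 0.12 on the log2 scale (adjusted p = 0.04). The call was lost when the numbering series of the titles entered the fit (-0.48, adjusted p = 0.214) and without any of Fibro replicates 1, 2 and 3 or ENZA co-culture replicates 1 and 3 (adjusted p between 0.0624 and 0.183).

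The index that ends each title restarts after title number 16, which puts replicates 2 and 3 of the ENZA co-culture and the whole ENZA + ISO co-culture in a second series. What the restart marks is not given in the labels. Within the first series, the ENZA co-culture has only replicate 1.

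Under ENZA, Enpp2 was higher with fibroblasts than without. The ENZA co-culture libraries, at 15.6, 19.2 and 14.5 CPM, all lay above the 10.2 to 11.3 CPM of ENZA alone. The log2 fold change was 0.59 ± 0.13, a 1.51-fold higher level (adjusted p = 0.014). The call was lost with the numbering series in the fit (0.52, adjusted p = 0.338), with only these 6 libraries fitted (adjusted p = 0.0622), without ENZA replicate 1 (adjusted p = 0.0974) and without ENZA co-culture replicate 2 (adjusted p = 0.136). Whether the fall under ENZA itself differed with fibroblasts was tested by the interaction, which was 0.79 ± 0.17 with an unadjusted p of 0.000137 and an adjusted p of 0.166. The interaction passed in DESeq2 (adjusted p = 0.0174) and with no filter on low counts (adjusted p = 4.72e-06), and adjusted p over all 19 alternatives ran from 4.72e-06 to 0.967.

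Among the 7 comparisons, the ISO comparison had the largest change of Enpp2. The ENZA + ISO co-culture had 48.8, 48.4 and 34.1 CPM, against 15.6, 19.2 and 14.5 CPM in the ENZA co-culture. The lowest ISO library, replicate 3, still lay above every library of the other 5 groups, whose highest was 26.6 CPM in T23 cells alone. The log2 fold change was 1.41 ± 0.11, a 2.67-fold higher level (adjusted p = 3.48e-09), and the call held in all 14 alternatives, with log2 fold changes between 1.33 and 1.57. Some markers of other cell types also differed with ISO. The 9 fibroblast markers summed to between 16021 and 16582 CPM with ISO, against 18354 to 19385 CPM without it, a sum made up mostly of Col1a1 and Col1a2. Of the 8 fibroblast markers tested, 6 were lower with ISO and 2 higher, the growth factor receptors Pdgfra (1377 CPM with ISO, against 1131 CPM) and Pdgfrb (324 CPM, against 278 CPM). The 4 smooth muscle markers summed to between 408 and 533 CPM, against 568 to 640 CPM, a sum made up mostly of Acta2. Of the 3 smooth muscle markers tested, only Acta2 was called, and it was lower with ISO (466 CPM, against 611 CPM). Cnn1 and Des were not called. Of the 5 endothelial markers, Kdr rose (0.73 ± 0.17, adjusted p = 0.00204), as did Tek (1.13 ± 0.29, adjusted p = 0.00524), both at low levels. The rest did not share this rise. Pecam1 averaged 0.340 CPM both with and without ISO, Vwf 0.167 CPM with ISO against 0.131 CPM, and Cdh5 0.127 CPM against 0.387 CPM. Of the 4 adipocyte markers only Fabp4 reached 1 CPM, Lep was at 0 in all 18 libraries, and the sum was between 4.59 and 5.595 CPM with ISO, against 4.45 to 5.04 CPM without it. The mitochondrial share was higher with ISO as well. The part of other cell types or of the mitochondrial share in the rise of Enpp2 was not tested.

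Fibroblasts without drug gave no called change of Enpp2. It had 21.8, 22.1 and 23.4 CPM in the Sparc-deficient co-culture, 20.5, 22.9 and 21.3 CPM in the wild-type co-culture and 26.6, 24.4 and 23.2 CPM in T23 cells alone. The Sparc-deficient group overlapped both others, and neither of its comparisons passed the test (0.05 ± 0.11 against wild-type and -0.14 ± 0.11 against T23 cells alone). The wild-type co-culture lay just below T23 cells alone without overlap (-0.19 ± 0.11, adjusted p = 0.591). By mean level, the order was ENZA alone, ENZA co-culture, wild-type co-culture, Sparc-deficient co-culture, T23 cells alone and ENZA + ISO co-culture. In that order the wild-type and the Sparc-deficient co-culture overlapped, as did the Sparc-deficient co-culture and T23 cells alone.

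**Figure D3:**
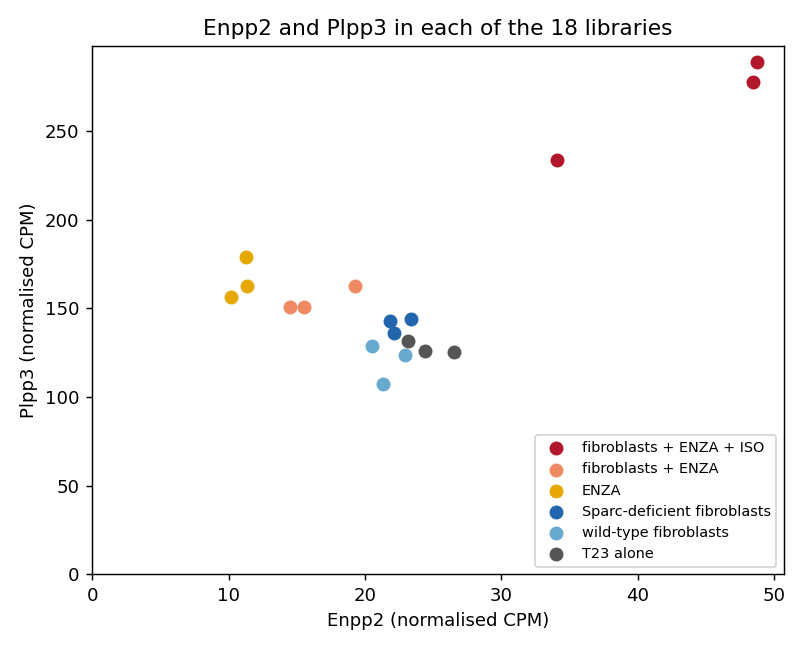
Normalised CPM of Enpp2 (horizontal axis) and Plpp3 (vertical axis) in each of the 18 libraries, coloured by group. The 3 ENZA + ISO co-culture libraries stand apart at the upper right, and the 3 of ENZA alone at the left have the lowest Enpp2 with Plpp3 between 156 and 179 CPM.

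Of 26 other genes of LPA production and acyl transfer, some of which use LPA up, 25 were tested. With ISO, 3 were higher and 6 lower in the ENZA + ISO against the ENZA co-culture. Of all tested genes 12.9% were higher and 13.6% lower. The median log2 fold change was -0.04, against 0.00 over all tested genes. Pla1a, a secreted phospholipase that makes lysophosphatidylserine, another substrate of autotaxin, went the opposite way to Enpp2. It had 3.98, 3.40 and 4.00 CPM with ISO, against 9.72, 9.05 and 10.04 CPM in the ENZA co-culture. The groups were far apart and the log2 fold change was -1.33 ± 0.14 (adjusted p = 1.29e-07). Gpam, the mitochondrial acyltransferase that makes LPA inside the cell for lipid synthesis, rose by 0.35 ± 0.05 on the log2 scale (adjusted p = 2.9e-05). Agpat4, an acyltransferase that uses LPA up, fell by 0.36 ± 0.05 (log2; adjusted p = 7.88e-06).

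Under ENZA, Gdpd1, an intracellular lysophospholipase D, rose where Enpp2 fell. It had 11.8, 12.5 and 11.7 CPM under ENZA alone, against 6.88, 7.22 and 6.37 CPM in T23 cells alone. The groups did not overlap, with a log2 fold change of 0.81 ± 0.10 (adjusted p = 1.45e-05). In the ENZA co-culture it averaged 11.1 ± 1.0 CPM, against 7.61 ± 0.818 CPM in the wild-type co-culture (0.54 ± 0.10, adjusted p = 0.00129). In the first of these comparisons, where 12% of all genes were called, 2 of 25 genes of the list were higher and none lower, the other being Pla2g4a, the cytosolic phospholipase A that releases arachidonate (0.17 ± 0.05, adjusted p = 0.02). In the second, where 7.18% of all genes were called, 1 was higher and 2 were lower, among them Pla1a (-0.46 ± 0.12, adjusted p = 0.0193). With Sparc-deficient against wild-type fibroblasts, where 11.5% of all genes were called, 4 were higher and 1 was lower. Pla2g4a rose (0.31 ± 0.05, adjusted p = 0.000124) and Gdpd1 fell (-0.44 ± 0.11, adjusted p = 0.0102).

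**Figure D4:**
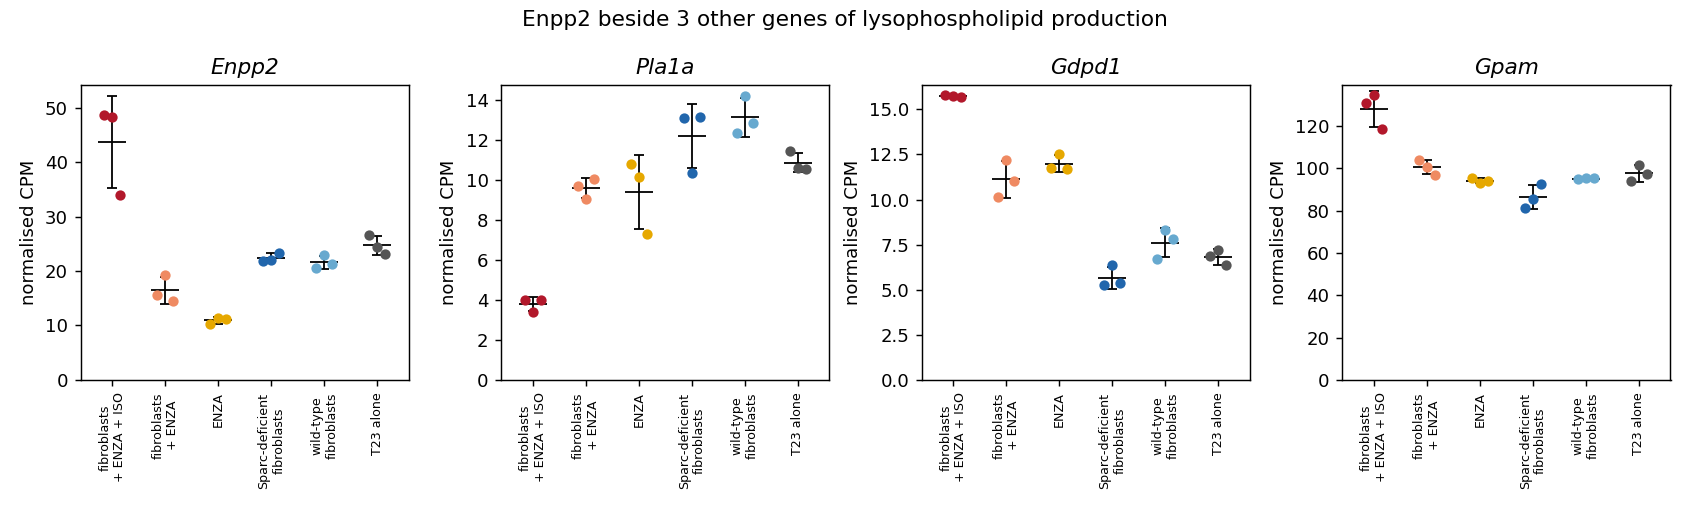
Normalised CPM (vertical axes, from 0) of Enpp2, Pla1a, Gdpd1 and Gpam in each library, by group, with mean and SD (n = 3). Pla1a is lowest in the ENZA + ISO co-culture (3.40 to 4.00 CPM), the group in which Enpp2 is highest, and Gdpd1 is higher in the 3 groups that received ENZA.

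Of the receptors, Lpar1 (ENSMUSG00000038668, chr4:58435255-58553898, minus strand), a widely expressed LPA receptor that is prominent in fibroblasts, ranged from 186 to 256 CPM over the 18 libraries. The ENZA + ISO co-culture had 254, 256 and 237 CPM, against 191, 219 and 207 CPM in the ENZA co-culture. All ISO libraries were the higher ones, and the log2 fold change was 0.28 ± 0.05, a 1.21-fold higher level (adjusted p = 0.000472). This call held in all 14 alternatives. With Sparc-deficient fibroblasts Lpar1 had 230, 216 and 238 CPM, against 206, 196 and 207 CPM with wild-type fibroblasts. These groups did not overlap either, at a log2 fold change of 0.17 ± 0.05 (adjusted p = 0.045), but the call was lost in 7 of 14 alternatives, among them no filter on low counts (adjusted p = 0.0978), the replicate number as a block (adjusted p = 0.0637) and leaving out Fibro replicate 1, 2 or 3 or SparcKO replicate 1 or 3 (adjusted p between 0.0609 and 0.185). ENZA left Lpar1 at 186, 204 and 196 CPM, against 214, 210 and 207 CPM in T23 cells alone (-0.11 ± 0.05, adjusted p = 0.216).

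Lpar2 (ENSMUSG00000031861, chr8:69822429-69831102, plus strand), an Edg-branch receptor often found raised in tumours, was called in the ISO comparison only. It had 48.1, 54.0 and 51.3 CPM in the ENZA + ISO co-culture, against 44.3, 43.3 and 43.6 CPM in the ENZA co-culture. Every ISO library was above every other (0.22 ± 0.06, adjusted p = 0.0113), and the call was lost without ENZA + ISO replicate 2 (adjusted p = 0.0734). In the Sparc-deficient co-culture Lpar2 had 36.2, 36.8 and 38.9 CPM, against 43.1, 41.5 and 43.4 CPM in the wild-type co-culture. That difference of -0.19 ± 0.07 did not pass (adjusted p = 0.058), though the groups did not overlap. It passed with only the 6 libraries fitted (adjusted p = 0.0428) and without ENZA replicate 2, a library of neither group (adjusted p = 0.0285).

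Lpar3 (ENSMUSG00000036832, chr3:146220963-146286186, plus strand), a receptor known for its part in embryo implantation, was near the limit of detection, with 5 to 33 counts per library. It had 0.36, 0.37 and 0.21 CPM in the ENZA + ISO co-culture, against 0.84, 0.60 and 0.78 CPM in the ENZA co-culture. All 3 ISO libraries were lower, at a log2 fold change of -1.23 ± 0.42 (adjusted p = 0.0343). The call was lost in 6 of 14 alternatives, which were the numbering series in the fit (adjusted p = 0.106) and leaving out ENZA co-culture replicate 1 or 3 or ENZA + ISO replicate 1, 2 or 3 (adjusted p between 0.0559 and 0.117). Its libraries overlapped between neighbouring groups throughout the order of means.

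Lpar4 (ENSMUSG00000049929, chrX:106920625-106933900, plus strand), known for roles in blood and lymph vessel formation, fell under ENZA alone. It had 3.30, 3.99 and 3.51 CPM there, against 6.06, 5.66 and 5.48 CPM in T23 cells alone. ENZA libraries all lay below the others, and the log2 fold change was -0.70 ± 0.17, a 1.62-fold lower level (adjusted p = 0.00743). The call held in all 13 alternatives (adjusted p at most 0.0382). In the ENZA co-culture Lpar4 had 4.58, 4.60 and 3.78 CPM, against 5.42, 3.54 and 4.10 CPM in the wild-type co-culture. Here the groups overlapped (0.01 ± 0.16, adjusted p = 0.99). The interaction for Lpar4 was 0.70 ± 0.23, with an unadjusted p of 0.00632 and an adjusted p of 0.759, so a difference between these responses was not called.

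Lpar6 (ENSMUSG00000033446, chr14:73237895-73243294, plus strand), a receptor whose loss causes a hair disorder in humans, was called in none of the comparisons. Its highest libraries were those of the Sparc-deficient co-culture, with 6.79, 6.70 and 7.27 CPM, against 4.95, 5.50 and 6.32 CPM in the wild-type co-culture (0.31 ± 0.15, adjusted p = 0.211). The gene lies on the opposite strand within Rb1 and shares 408 exon bases with it. The libraries were stranded, but the strand setting of the counting is not stated, so reads of the shared bases may have been counted to neither or to both. The same holds for 452 exon bases that Plpp1 shares with Mtrex, and for 345 that Enpp2 shares with Gm26684, which had 0 to 2 counts. Other LPA receptors were scarce. Lpar5 had 0 to 2 counts, and of 6 further receptors of LPA or related lipids only Gpr35, a proposed LPA receptor, was tested. Gpr35 fell in the ENZA co-culture, with 2 to 3 counts per library, against 13 to 20 in the wild-type co-culture (-2.70 ± 0.47, adjusted p = 0.000633).

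Plpp3 (ENSMUSG00000028517, chr4:105157347-105232764, plus strand), which degrades LPA at the cell surface and is required for vessel development in the mouse embryo, rose under ENZA and rose further with ISO. Under ENZA alone it had 156, 163 and 179 CPM, against 125, 126 and 132 CPM in T23 cells alone. No library of one group reached the other, at a log2 fold change of 0.38 ± 0.07, a 1.30-fold higher level (adjusted p = 0.00108). The ENZA co-culture had 151, 163 and 151 CPM, against 129, 124 and 108 CPM in the wild-type co-culture. Again the groups were apart (0.37 ± 0.07, adjusted p = 0.00189), and the call was lost only with the numbering series in the fit (0.33, adjusted p = 0.117). The interaction was -0.01 ± 0.10 (adjusted p = 0.999). With ISO, Plpp3 had 289, 278 and 234 CPM, against 151, 163 and 151 CPM in the ENZA co-culture. All 3 libraries exceeded every library without ISO, and replicate 3 was the lowest of them, as it was for Enpp2 and Lpar1. The log2 fold change was 0.79 ± 0.07, a 1.72-fold higher level (adjusted p = 1.92e-08), and it held in all 14 alternatives.

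With Sparc-deficient fibroblasts Plpp3 had 143, 136 and 144 CPM, against 129, 124 and 108 CPM with wild-type fibroblasts. All Sparc-deficient libraries were higher (0.23 ± 0.07, adjusted p = 0.0371), but the call was lost without Fibro replicate 2 or 3 or any of SparcKO replicates 1, 2 and 3 (adjusted p between 0.0625 and 0.181). Plpp1 (ENSMUSG00000021759, chr13:112800792-112867894, plus strand), the sister phosphatase, changed less. It had 44.3, 47.8 and 44.4 CPM in the ENZA + ISO co-culture, against 38.0, 38.2 and 37.7 CPM in the ENZA co-culture. The ISO libraries were all above the others (0.26 ± 0.08, adjusted p = 0.0183), and the call was lost without ENZA + ISO replicate 2 (adjusted p = 0.0873). In the Sparc-deficient co-culture Plpp1 had 47.0, 40.1 and 45.7 CPM, against 35.7, 37.4 and 35.4 CPM in T23 cells alone. All 3 libraries were higher (0.29 ± 0.08, adjusted p = 0.0225), with the call lost without T23 replicate 1 or 3 or SparcKO replicate 1 or 3 (adjusted p between 0.083 and 0.104).

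Of 13 other genes of lipid phosphate breakdown 9 were tested. Lpin3, a phosphatidate phosphatase inside the cell, fell under ENZA both without fibroblasts (-0.73 ± 0.10, adjusted p = 3.72e-05) and with them (-0.68 ± 0.10, adjusted p = 0.000107), and again when ISO was added (-0.63 ± 0.11, adjusted p = 0.000108). Plpp5, a distant relative of Plpp1 and Plpp3, fell under ENZA alone (-0.32 ± 0.08, adjusted p = 0.00838) and rose with ISO (0.28 ± 0.07, adjusted p = 0.00701). The counts of this list were 2 lower and none higher under ENZA alone, where 12% of all genes were called, and 1 in each direction with ISO, where 26.5% were.

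The promoters of Plpp3 and Lpar4 are shown because these genes, an LPA phosphatase and an LPA receptor, were called in opposite directions under ENZA alone. Each sequence is the 250 bases before the start site in RefSeq on GRCm38.p6, with motif matches in capitals.
Plpp3, chr4:105157097-105157346, plus strand: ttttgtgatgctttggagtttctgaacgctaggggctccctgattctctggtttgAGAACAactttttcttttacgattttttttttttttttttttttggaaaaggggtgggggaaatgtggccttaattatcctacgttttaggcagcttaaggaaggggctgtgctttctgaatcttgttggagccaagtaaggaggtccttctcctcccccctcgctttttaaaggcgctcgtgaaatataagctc
Lpar4, chrX:106920375-106920624, plus strand: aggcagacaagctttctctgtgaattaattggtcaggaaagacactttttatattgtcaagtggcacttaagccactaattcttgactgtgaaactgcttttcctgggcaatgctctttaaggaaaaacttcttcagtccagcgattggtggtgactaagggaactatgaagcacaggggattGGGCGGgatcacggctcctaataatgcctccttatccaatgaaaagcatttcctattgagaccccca
Motifs were searched on both strands, chosen with earlier results known, and each is given with the share of 32851 mouse promoter windows of 250 bases that hold it. They were the androgen receptor half-site AGAACA (16.1%), the GC box GGGCGG (32.7%), the AhR core GCGTG (28.2%), the NRF2 element TGACNNNGC (10.2%), the TEAD site GGAATG (12.6%), the TCF/LEF site CTTTGAT (3.21%) and the AP-1 site TGANTCA (6.75%). The Plpp3 window held AGAACA at -195 and the Lpar4 window GGGCGG at -67, counted from the start site. Neither window held another of the 7 motifs. Of the members, 6 had a promoter in the RefSeq table, and Enpp2 and Plpp1 had none.

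The genes known to respond to LPA, such as immediate-early genes, moved in both directions. Of 20 listed genes 19 were tested. In the Sparc-deficient against the wild-type co-culture 8 were higher and 1 lower, beside 6.72% higher and 4.79% lower of all genes. The median log2 fold change was 0.16, against -0.01 over all tested genes. The early growth response factor Egr1 led (1.17 ± 0.08, adjusted p = 1.03e-09). Next came the prostaglandin synthase Ptgs2 (0.93 ± 0.07, adjusted p = 1.45e-09) and the matricellular protein gene Ccn1 (0.88 ± 0.07, adjusted p = 3.6e-09). Against T23 cells alone 9 were higher and none lower, beside 6.1% higher and 3.65% lower of all genes. Ptgs2 (0.71 ± 0.06) and the chemokine Cxcl1 (1.11 ± 0.12) were among the higher ones. Enpp2 was called in neither of these comparisons. Under ENZA alone 1 was higher and 6 were lower, beside 6.84% higher and 5.19% lower of all genes. Ccn1 was at -0.59 ± 0.07 (adjusted p = 2.11e-06) and its relative Ccn2 at -0.42 ± 0.08 (adjusted p = 0.000788). Enpp2 was also lowest in this group, and a link with these genes was not tested. In the ENZA against the wild-type co-culture 2 were higher and 4 lower, beside 3.7% higher and 3.49% lower of all genes. In the ENZA co-culture against ENZA alone 2 were higher and 1 lower, beside 1.14% higher and 0.941% lower of all genes. With ISO 5 were higher and 6 lower, beside 12.9% higher and 13.6% lower of all genes. Ankrd1, a target of YAP, fell (-0.78 ± 0.08, adjusted p = 5.19e-08) and Ptgs2 rose (0.44 ± 0.07, adjusted p = 1.82e-05). The wild-type co-culture against T23 cells alone gave 1 higher and 4 lower, beside 0.257% of all genes in each direction, with Egr1 at -0.66 ± 0.08 (adjusted p = 0.000276).

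The 28 listed G proteins and downstream effectors that carry the receptors' signal were all tested, and their counts lay near the shares of all genes. With ISO 2 were higher and 7 lower, beside 26.5% of all genes, among them Gnb1, a G protein beta subunit (-0.28 ± 0.05, adjusted p = 0.000146), and the small GTPase Rhob (-0.49 ± 0.09, adjusted p = 0.000227). Under ENZA alone 2 were higher and 1 lower, beside 12% of all genes, led by the kinase Rock2 (0.34 ± 0.07, adjusted p = 0.00176). In the ENZA against the wild-type co-culture 3 were higher and none lower, beside 7.18% of all genes. Integrins that bind autotaxin at the cell surface were lower with ISO in 3 of 4 tested, beside 13.6% of all genes, with Itgb3 at -0.52 ± 0.10 (adjusted p = 0.000378) and Itgav at -0.36 ± 0.07 (adjusted p = 0.000506). Of the parallel sphingosine 1-phosphate arm 8 of 12 genes were tested. With ISO, beside 26.5% of all genes, 2 were higher and 1 lower: the receptor S1pr3 fell (-0.45 ± 0.05, adjusted p = 8.22e-08), while the receptor S1pr1 (0.34 ± 0.07, adjusted p = 0.000458) and the intracellular phosphatase Sgpp1 (0.54 ± 0.06, adjusted p = 4.12e-07) rose. Among the relatives of Enpp2, Enpp1, which makes pyrophosphate outside the cell, rose in the Sparc-deficient against the wild-type co-culture (0.33 ± 0.06, adjusted p = 0.00139), under ENZA alone (0.44 ± 0.07, adjusted p = 0.000109) and in the ENZA against the wild-type co-culture (0.41 ± 0.06, adjusted p = 0.000238). Of the 4 relatives tested, 2 were higher and 1 lower under ENZA alone, beside 12% of all genes.

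The genes whose levels ran most like those of a member were found by Pearson's r of log2 CPM over the 18 libraries, among tested genes with a mean of at least 5 CPM. Libraries share groups, so these values describe the group pattern and have no test. For Enpp2 they were Prrx2 (r = 0.93), Mxd4 (r = 0.92) and Itgbl1 (r = 0.91). For Plpp3 they were Bicc1 (r = 0.97), Colec12 (r = 0.97) and Xdh (r = 0.96). For Lpar1 they were Fam213a (r = 0.95), Irf9 (r = 0.91) and Maf (r = 0.90), and for Lpar2 Rab32 (r = 0.95), Slc25a44 (r = 0.94) and Slc36a1 (r = 0.94). For Plpp1 the highest was Akr1b3 (r = 0.93), for Lpar6 Arl1 (r = 0.91), for Lpar3 Pdcl3 (r = 0.84) and for Lpar4 Calhm5 (r = 0.81). Between members, r ran from -0.70 for Lpar2 with Lpar6 to 0.83 for Enpp2 with Lpar1. It was 0.47 for Enpp2 with Plpp3 and 0.01 for Enpp2 with Lpar6.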

How the data were processed

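Each deposited file holds the authors' raw counts of one library, by Ensembl identifier. Per the submitters' processing notes, STAR 2.6.1d, featureCounts 2.0, cutadapt 2.9, DESeq2, FastQC 0.11.9 and bcl2fastq 2.20.0.422 were used with the build GRCm38. Per the labels' protocols, libraries were stranded and made from polyadenylated RNA. Annotation release and strand setting are not given in the sources used here. Symbols, loci and exon lengths came from GENCODE M21, which matched 55227 of 55487 identifiers.

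The edgeR function filterByExpr (minimum count 10) left 13600 genes. A single quasi-likelihood fit with TMM scaling (edgeR 4.0.16, limma 3.58.1, R 4.3.3) held all 18 libraries and 1 mean per group. It had 12 residual degrees of freedom, and the biological coefficient of variation was 7.03%. Tests were two-sided, with Benjamini-Hochberg adjustment over 13600 genes. SE was taken as the size of a log2 fold change divided by the root of its F value. Alternatives included DESeq2 1.42.0, RLE scaling, no filter, a replicate block, the numbering series as a term and leaving out each library. The test was tried on simulated data.

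Members and gene lists were chosen with earlier results of these data known. Genes were named by a rule: the 8 members, Sparc, up to 3 called genes by smallest p per list and comparison, and the 3 genes most like each member. Marker genes at 0, further single markers such as Pdgfra and Pdgfrb, and further counts of Gpr35 and Lpar5 were named after their values were seen. A few genes the rule names are left out of this text.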

Additional observations from a re-analysis of the deposited data

How the results depend on the processing

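The 15 calls of the 8 genes kept their direction in all 206 alternative values, and 171 of these were still called. In every alternative run, 6 calls were kept: Enpp2, Lpar4 and Plpp3 under ENZA alone, and Enpp2, Plpp3 and Lpar1 with ISO. Replicate numbers did not pair libraries (0 of 15 pairs of groups had every same-number correlation above 0.1). With the replicate number as a block the called members were 1 in the Sparc-deficient against the wild-type co-culture, in place of 2, and their number was unchanged in the other comparisons. It was also 1 there with no filter on low counts. With the fit limited to the groups compared it was 2 for the Sparc-deficient co-culture against T23 cells alone, in place of 1, 0 for the ENZA co-culture against ENZA alone, in place of 1, and 3 for the Sparc-deficient against the wild-type co-culture, in place of 2. With the numbering series in the fit it was 0 for the ENZA against the wild-type co-culture, in place of 2, 0 for the ENZA co-culture against ENZA alone, and 5 with ISO, in place of 6. The interaction gave 1 with DESeq2 and with no filter. The causes were not tested. Leaving out 1 library at a time gave 0 to 3 called members for the Sparc-deficient against the wild-type co-culture, 0 to 1 for it against T23 cells alone, 1 to 2 for the ENZA against the wild-type co-culture, 0 to 1 for the ENZA co-culture against ENZA alone and 3 to 6 with ISO.

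Log2 fold changes near 0 that were not called changed sign when libraries were left out. In the wild-type co-culture against T23 cells alone Lpar6 ran from -0.15 to 0.020. Under ENZA alone Lpar2 ran from -0.044 to 0.055 and Lpar3 from -0.11 to 0.35. In the ENZA against the wild-type co-culture Lpar1 ran from -0.024 to 0.073, Lpar3 from -0.52 to 0.26 and Lpar4 from -0.14 to 0.19, with Lpar1 at -0.085 under the numbering series and Lpar4 at -0.000147 with no filter. In the ENZA co-culture against ENZA alone Lpar3 ran from -0.046 to 0.41, with Lpar1 at -0.029 and Lpar6 at 0.076 under the numbering series. With ISO Lpar6 ran from -0.055 to 0.24. In the interaction Lpar2 ran from -0.019 to 0.080, Lpar3 from -0.68 to 0.095, Lpar6 from -0.29 to 0.014 (0.13 under the numbering series), Plpp1 from -0.084 to 0.099 and Plpp3 from -0.086 to 0.046.

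Counts of all called genes depended more on the fit. For the wild-type co-culture against T23 cells alone, 70 became 138 with DESeq2, 165 with no filter and 339 with only these groups fitted, and 11 to 161 with a library left out. For the ENZA co-culture against ENZA alone, 283 became 433, 541 and 59 under the same settings, 11 with the numbering series, and 83 to 417 with a library left out. For the ENZA against the wild-type co-culture, 977 became 214 with the numbering series and 545 to 1435 with a library left out. With only the groups compared, 1636 became 730 for ENZA alone against T23 cells alone and 1325 became 2198 for the Sparc-deficient co-culture against T23 cells alone. With a library left out these 2 counts ran from 916 to 1716 and from 746 to 1725, and that of the Sparc-deficient against the wild-type co-culture, 1566, from 846 to 2109. The interaction count, 3, was 8 with DESeq2, 99 with no filter and otherwise between 0 and 11. With the numbering series, 43.5% of calls in the ENZA against the wild-type co-culture were higher, and 90.9% in the ENZA co-culture against ENZA alone. Depth limits Lpar3 most, with 5 to 33 counts per library.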
